A study of Mus musculus with 12 samples.

Results

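The cytochrome P450 genes of mouse were read across 12 RNA sequencing libraries of cultured adipocytes. Members were the gene symbols made of Cyp, a number, lower-case letters and a closing number, and nothing more. This gave 94 genes of 24888 entries, each at 1 locus, and 17 of them reached 1 FPKM (fragments read per length of transcript, corrected for the size of the library) in 2 or more libraries. Of the other members, 38 were above 0 somewhere but under that level, and 39 were listed at 0 in all 12 libraries. Among the 17 kept members, Cyp4b1 differed most between cultures labelled ATF7KO and WT.

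Each of the 6 groups held 2 libraries. In C3H10t1/2, an established mouse mesenchymal line, differentiation with rosiglitazone gave beige adipocytes that overexpressed ATF7, with a control of the same line. Inguinal preadipocytes of C57BL/6 origin, labelled ATF7KO or WT, gave beige cultures when rosiglitazone was present and white cultures when it was absent. Rosiglitazone is a synthetic agonist of PPARγ, so the C3H10t1/2 groups and both beige primary groups share that drug. ATF7 is a stress-responsive transcription factor of the ATF2 subfamily. The labels give neither the knockout allele nor the overexpression construct, and nothing in them tells separate cultures or animals from repeat libraries. The p-values below therefore reflect the scatter of these libraries alone, which may be technical.

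Cytochromes P450 are haem proteins that put an oxygen atom into lipophilic molecules, using electrons passed on by Por in the endoplasmic reticulum or by ferredoxins in mitochondria. Some families clear drugs and pollutants, and others make or break down signals such as fatty acid epoxides, oxysterols, retinoic acid and vitamin D. Liver holds the richest set, while fat cells are known for fewer members, several of which act on fatty acids or on ligands of nuclear receptors.

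Atf7 was read first as a check of the labels. Atf7 (chromosome 15, 102525946 to 102625464, mm10) had 41.2 and 39.1 FPKM in C3H10t1/2 ATF7-overexpressing libraries, against 8.52 and 9.09 FPKM in control libraries. It rose by 2.07 on the log2(FPKM + 1) scale (SE 0.07, limma with Benjamini-Hochberg adjustment over the entries tested, adjusted p = 0.000162). In beige cultures it had 7.26 and 7.94 FPKM in ATF7KO libraries and 7.80 and 7.83 FPKM in WT libraries, and in white cultures 6.88 and 7.73 FPKM in ATF7KO libraries and 9.10 and 7.10 FPKM in WT libraries. The difference between ATF7KO and WT was -0.04 in beige and -0.13 in white cultures and was not called in either (limma, adjusted p = 0.949 in beige and 0.604 in white). A value per gene does not show single exons, so it cannot check a deletion of part of the gene, and every direction between ATF7KO and WT below rests on the labels alone.

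Replicate libraries of a group had a Pearson correlation across 11601 entries of 0.969 to 0.986, and 9844 to 10877 entries per library reached 1 FPKM. The values are FPKM without counts, so depth cannot be read from them and counting error is not estimated. Adipocyte markers were present in all groups, with summed levels of 13220 to 14418 FPKM in C3H10t1/2 ATF7-overexpressing, 13361 to 13594 FPKM in control, 11729 to 13183 FPKM in ATF7KO beige, 12096 to 12682 FPKM in WT beige, 4195 to 4310 FPKM in ATF7KO white and 5496 to 6450 FPKM in WT white libraries. All 13 measured macrophage markers and 10 of 11 stromal progenitor markers had a mean of 1 FPKM or more in the white cultures. The markers of liver and epithelium were at or near 0, with sums up to 0.175 FPKM for hepatocyte genes and 0.583 FPKM for epithelial genes. In bulk RNA, fewer cells of a type and less RNA per cell cannot be told apart.

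The fatty acid hydroxylase Cyp4b1 and the xenobiotic enzymes Cyp2f2, Cyp2e1 and Cyp1b1 were the top members by level, and the 250 bases before their RefSeq starts (build GRCm38.p6) are shown so that their start regions can be compared. Each reads in the direction of its gene. Capitals mark 4 motifs, each searched on both strands, so that the reverse complement counts too. The first, AGGTCA, is the half-site bound by nuclear receptors such as PPARγ with RXR. The next, GCGTG, is the core of the site of the aryl hydrocarbon receptor. TATAAA is the TATA box of core promoters. The last, TGACGTCA, is the cAMP response element, the palindrome bound by ATF and CREB factors. The windows lie at chr4:115647722-115647971, minus strand, for Cyp4b1, chr7:27119705-27119954, plus strand, for Cyp2f2, chr7:140763569-140763818, plus strand, for Cyp2e1, and chr17:79715062-79715311, minus strand, for Cyp1b1.
Cyp4b1: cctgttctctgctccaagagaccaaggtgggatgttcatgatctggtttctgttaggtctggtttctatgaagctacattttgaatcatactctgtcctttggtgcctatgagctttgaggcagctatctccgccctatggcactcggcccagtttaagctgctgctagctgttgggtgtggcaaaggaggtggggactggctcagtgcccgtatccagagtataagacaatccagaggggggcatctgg
Cyp2f2: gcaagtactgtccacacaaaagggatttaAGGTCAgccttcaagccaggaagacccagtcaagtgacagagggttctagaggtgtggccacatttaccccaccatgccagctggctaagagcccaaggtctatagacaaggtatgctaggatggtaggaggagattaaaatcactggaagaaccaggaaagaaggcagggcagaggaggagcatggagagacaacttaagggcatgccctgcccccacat
Cyp2e1: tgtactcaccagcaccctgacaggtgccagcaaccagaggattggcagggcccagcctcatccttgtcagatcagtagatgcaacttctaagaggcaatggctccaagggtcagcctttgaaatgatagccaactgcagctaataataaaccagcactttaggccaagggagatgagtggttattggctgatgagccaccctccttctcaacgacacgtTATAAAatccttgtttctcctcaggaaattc
Cyp1b1: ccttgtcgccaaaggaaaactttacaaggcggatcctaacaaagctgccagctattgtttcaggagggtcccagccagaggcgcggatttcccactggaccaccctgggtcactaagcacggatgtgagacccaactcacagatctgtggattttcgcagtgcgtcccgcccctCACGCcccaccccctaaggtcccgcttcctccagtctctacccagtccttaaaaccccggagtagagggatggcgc

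The Cyp2e1 window held a TATA box 31 bases before the start and the Cyp1b1 window held CACGC 76 bases before it. The Cyp2f2 window held AGGTCA 221 bases before the start, and the Cyp4b1 window held none of these letters. Of the 17 members, 13 had a RefSeq window, and Cyp2d22, Cyp2u1, Cyp4f17 and Cyp7b1 had none here. The half-site was in 2 of the 13 (Cyp2c70 and Cyp2f2), against 14.02% of all 32851 windows. The aryl hydrocarbon receptor core was in 5 of 13 (Cyp1b1, Cyp20a1, Cyp2j9, Cyp4f16 and Cyp4v3), against 28.2% of all windows. The TATA box was in 3 (Cyp26b1, Cyp2c70 and Cyp2e1), against 12.4%. For Cyp20a1 and Cyp26b1, a stretch just after the start was not found in the annotated transcripts of the gene, so their starts are less certain. The cAMP response element was in 0 of 13, against 1.55% of all windows, and 2 half-sites in direct repeat with 1 base between them were in 0 of 13, against 0.0335%. The G and C content was 51.6% for Cyp4b1, 51.6% for Cyp2f2, 48.8% for Cyp2e1 and 58.0% for Cyp1b1, against a median of 52.4%. These matches describe letters in a short window and say nothing about binding.

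The leading P450 gene differed between the C3H10t1/2, the beige primary and the white primary libraries. Cyp2f2 was the top member in each C3H10t1/2 library, with 36.3% to 39.5% of the summed FPKM of the 94 members in ATF7-overexpressing and 29.6% to 30.2% in control libraries. Cyp4b1 led in each beige primary library, with 42.6% and 54.9% of the sum in ATF7KO and 17.8% and 20.6% in WT. Cyp1b1 led in each white library, with 37.4% and 38.4% in ATF7KO and 33.6% and 36.2% in WT. The summed level was 261.5 and 227.1 FPKM in ATF7-overexpressing and 186.4 and 204.4 FPKM in control C3H10t1/2 libraries. It was 88.7 and 139.6 FPKM in ATF7KO beige, 60.0 and 68.7 FPKM in WT beige, 120.0 and 125.3 FPKM in ATF7KO white and 109.9 and 111.4 FPKM in WT white libraries. The family total was thus highest in C3H10t1/2 and lowest in WT beige, and the ATF7KO beige libraries stood apart from WT beige through Cyp4b1.

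**Figure D1:**
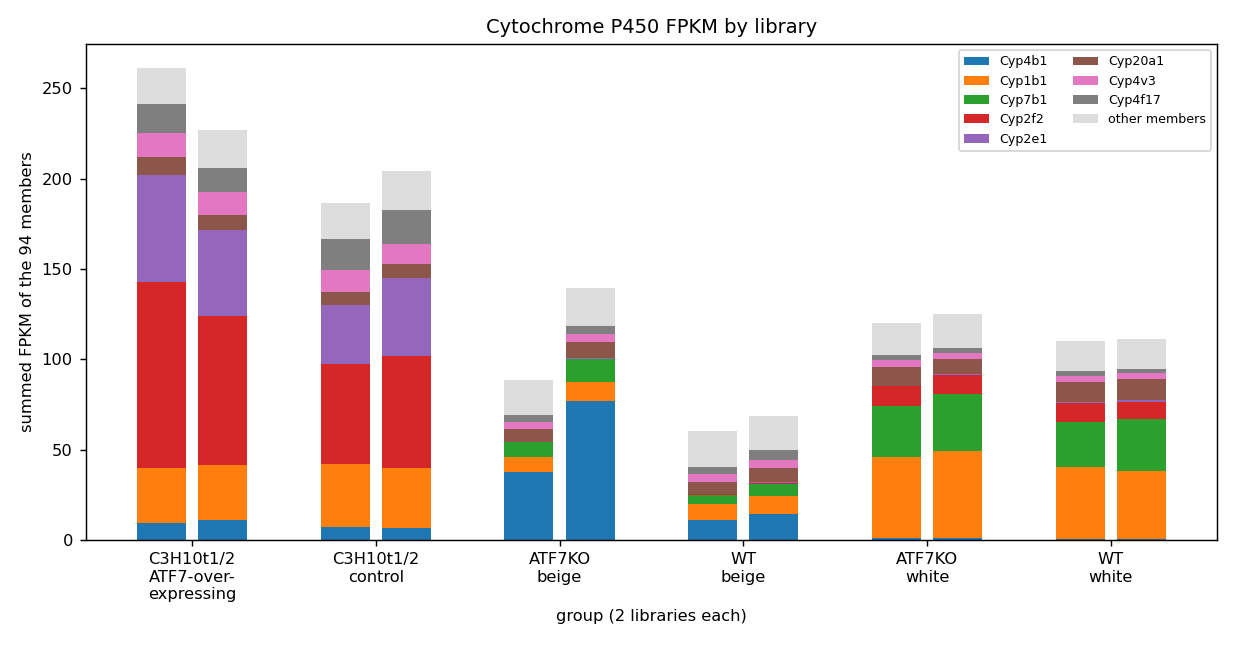
Stacked bars give the FPKM of the cytochrome P450 members in each of the 12 libraries, 2 per group (vertical axis: summed FPKM of the 94 members). Cyp2f2 and Cyp2e1 fill much of the C3H10t1/2 bars, Cyp4b1 leads in the beige primary cultures and Cyp1b1 with Cyp7b1 in the white ones.

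By family number, 8 of 49 Cyp2 genes and 5 of 17 Cyp4 genes reached the level, with 1 of 3 Cyp1 genes, 1 of 3 Cyp26 genes, 1 of 2 Cyp7 genes and the single Cyp20 gene. The 7 Cyp3 genes, which clear drugs in liver and gut, did not exceed 0.0423 FPKM. None of the 6 steroid synthesis genes passed: Cyp11a1, Cyp11b2 and Cyp19a1, the aromatase that makes oestrogen, were listed at 0 in all 12 libraries, and the other three stayed under 0.0895 FPKM. Of the 6 genes listed for sterols and bile acids, Cyp7b1 alone passed. That list did not hold Cyp2c70, a bile acid enzyme described below, which also passed. Of 3 vitamin D genes, Cyp2r1 alone passed, and Cyp24a1, which breaks down active vitamin D, was listed at 0 throughout. Of 3 retinoic acid genes, Cyp26b1 alone passed. Cyp1a1, the classic target of the aryl hydrocarbon receptor, did not exceed 0.0695 FPKM.

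At the edge of the level, the second highest library had 1.86 FPKM for Cyp26b1, 1.73 FPKM for Cyp2r1 and 1.60 FPKM for Cyp2j9, which were kept. It had 0.714 FPKM for Cyp39a1 and 0.668 FPKM for Cyp27a1, both sterol hydroxylases, and 0.645 FPKM for Cyp46a1, a brain cholesterol hydroxylase, which were not. The highest single values under the level were 1.02 FPKM for Cyp46a1, 0.917 FPKM for Cyp27a1 and 0.732 FPKM for Cyp4a14. With 0.5, 2 or 5 FPKM in place of 1, 20, 14 or 9 members would have been kept. 7 members (Cyp1b1, Cyp20a1, Cyp2j6, Cyp2u1, Cyp4f13, Cyp4f17 and Cyp4v3) had 1 FPKM or more in all 12 libraries.

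**Figure D2:**
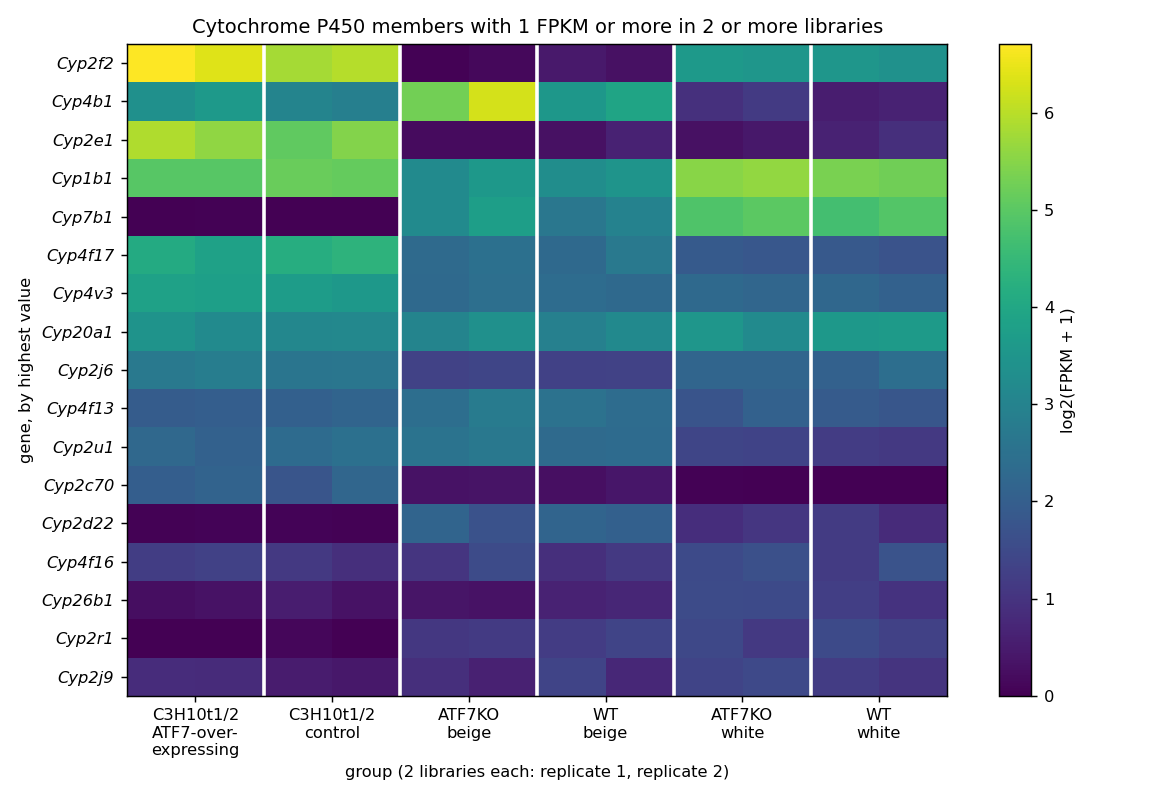
Colour gives log2(FPKM + 1) of the 17 members (rows, ordered by highest value) in the 12 libraries (columns, replicate 1 then replicate 2 of each group). Cyp2f2 and Cyp2e1 are bright in C3H10t1/2, Cyp4b1 is brightest in ATF7KO beige, and Cyp1b1 and Cyp7b1 are bright in white cultures.

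Fatty acid hydroxylases of the Cyp4 family came first by Cyp4b1 (chromosome 4, 115624728 to 115647705, mm10), which hydroxylates medium-chain fatty acids and activates some lung toxins. Cyp4b1 had 9.35 and 11.1 FPKM in C3H10t1/2 ATF7-overexpressing and 7.22 and 6.46 FPKM in control libraries, 37.8 and 76.7 FPKM in ATF7KO beige and 10.7 and 14.2 FPKM in WT beige, and 0.920 and 1.18 FPKM in ATF7KO white and 0.448 and 0.567 FPKM in WT white. The 2 ATF7KO beige libraries were the highest of the 12 and differed from each other by more than any other pair of replicates of this gene, at 57.2 ± 27.5 FPKM (SD, n = 2). WT beige and C3H10t1/2 ATF7-overexpressing libraries overlapped, and no other neighbours in the order of levels did. The 4 members within 200000 bases of Cyp4b1 (Cyp4a14, Cyp4a10, Cyp4a31 and Cyp4a32) did not exceed 0.732 FPKM. Cyp4a10 and Cyp4a14 are known targets of PPARα in liver, and Cyp4a14 was listed at 0 in all 8 primary libraries.

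The Cyp4f genes belong to a subfamily known for hydroxylating leukotrienes and long-chain fatty acids at the omega end. Cyp4f17 had 16.1 and 13.4 FPKM in C3H10t1/2 ATF7-overexpressing and 17.2 and 19.1 FPKM in control, 3.99 and 4.56 FPKM in ATF7KO beige and 3.92 and 5.54 FPKM in WT beige, and 2.70 and 2.54 FPKM in ATF7KO white and 2.64 and 2.27 FPKM in WT white. It was highest in the line and lowest in white cultures, and ATF7KO and WT overlapped in both culture kinds. Cyp4f13 had 2.88 and 2.99 FPKM in C3H10t1/2 ATF7-overexpressing and 3.18 and 3.46 FPKM in control, 4.40 and 5.96 FPKM in ATF7KO beige and 4.72 and 4.18 FPKM in WT beige, and 2.34 and 3.26 FPKM in ATF7KO white and 2.77 and 2.50 FPKM in WT white. Cyp4f13 was highest in the beige primary cultures. Cyp4f16 ranged from 0.868 to 2.27 FPKM over the 12 libraries, and its highest groups overlapped one another. Cyp4f16 and Cyp4f17 lie within 200000 bases of each other and of 4 further Cyp4f members, and near-identical copies may share reads.

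Cyp4v3, the counterpart of the human fatty acid hydroxylase whose loss causes a crystalline retinal dystrophy, had 13.3 and 12.9 FPKM in C3H10t1/2 ATF7-overexpressing and 12.02 and 10.9 FPKM in control, 3.86 and 4.45 FPKM in ATF7KO beige and 4.18 and 3.93 FPKM in WT beige, and 3.89 and 3.68 FPKM in ATF7KO white and 3.71 and 3.20 FPKM in WT white. The level was steady over the 8 primary libraries and higher in all 4 libraries of the line. Cyp2u1, a long-chain fatty acid hydroxylase known best from human, had 3.78 and 3.26 FPKM in C3H10t1/2 ATF7-overexpressing and 4.06 and 4.54 FPKM in control, 4.87 and 5.42 FPKM in ATF7KO beige and 4.02 and 4.05 FPKM in WT beige, and 1.65 and 1.56 FPKM in ATF7KO white and 1.29 and 1.18 FPKM in WT white. Each white library was below each other library for Cyp2u1, and no neighbouring groups in its order overlapped.

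Cyp2j6 and Cyp2j9 belong to the subfamily that makes epoxides of arachidonic acid, and they are neighbours on chromosome 4. Cyp2j6 had 5.51 and 6.12 FPKM in C3H10t1/2 ATF7-overexpressing and 5.05 and 5.22 FPKM in control, 1.51 and 1.65 FPKM in ATF7KO beige and 1.47 and 1.48 FPKM in WT beige, and 3.53 and 3.59 FPKM in ATF7KO white and 3.20 and 4.40 FPKM in WT white. It was lowest in beige primary cultures. Cyp2j9 had 0.812 and 0.767 FPKM in C3H10t1/2 ATF7-overexpressing and 0.426 and 0.361 FPKM in control, 0.872 and 0.543 FPKM in ATF7KO beige and 1.58 and 0.673 FPKM in WT beige, and 1.60 and 1.79 FPKM in ATF7KO white and 1.30 and 1.03 FPKM in WT white. The WT beige libraries of Cyp2j9 spanned both sides of the WT white ones.

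Among enzymes known for foreign compounds, Cyp2f2 (chromosome 7, 27119955 to 27133660, mm10), which activates naphthalene in the airway cells of mice, had 103.4 and 82.5 FPKM in C3H10t1/2 ATF7-overexpressing and 55.1 and 61.7 FPKM in control, 0.0323 and 0.103 FPKM in ATF7KO beige and 0.381 and 0.228 FPKM in WT beige, and 11.1 and 10.6 FPKM in ATF7KO white and 10.6 and 9.59 FPKM in WT white. It was the highest value of any member, and no neighbouring groups in its order overlapped. The white groups nearly met, at 10.60 FPKM in the lower ATF7KO and 10.56 FPKM in the higher WT library. The 3 members within 200000 bases of it stayed under 0.326 FPKM. Cyp2e1 (chromosome 7, 140763832 to 140774977, mm10), which oxidises ethanol and other small molecules, had 59.0 and 47.4 FPKM in C3H10t1/2 ATF7-overexpressing and 32.6 and 43.3 FPKM in control, 0.136 and 0.145 FPKM in ATF7KO beige and 0.231 and 0.569 FPKM in WT beige, and 0.240 and 0.349 FPKM in ATF7KO white and 0.566 and 0.882 FPKM in WT white. Cyp2e1 reached 1 FPKM in the 4 libraries of the line and in 0 of 8 primary libraries. Hepatocyte markers summed to at most 0.175 FPKM in the line, with Fgb, Serpina1a and Tat listed at 0 in both groups.

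Cyp1b1 (chromosome 17, 79706953 to 79715041, mm10), which oxidises oestrogens and polycyclic hydrocarbons, had 30.2 and 30.3 FPKM in C3H10t1/2 ATF7-overexpressing and 35.0 and 33.6 FPKM in control, 8.22 and 10.98 FPKM in ATF7KO beige and 8.86 and 10.1 FPKM in WT beige, and 44.9 and 48.2 FPKM in ATF7KO white and 39.8 and 37.4 FPKM in WT white. Both beige primary groups overlapped at the low end and the white cultures stood highest. Cyp2d22, the closest mouse relative of a main human drug-clearing P450, had 0.0278 and 0.0389 FPKM in C3H10t1/2 ATF7-overexpressing and 0.0426 and 0.0225 FPKM in control, 3.46 and 2.21 FPKM in ATF7KO beige and 3.48 and 3.16 FPKM in WT beige, and 0.845 and 1.09 FPKM in ATF7KO white and 1.24 and 0.774 FPKM in WT white. Cyp2c70, which makes muricholic acids in mouse liver, had 2.99 and 3.37 FPKM in C3H10t1/2 ATF7-overexpressing and 2.41 and 3.62 FPKM in control, 0.261 and 0.275 FPKM in ATF7KO beige and 0.215 and 0.324 FPKM in WT beige, and 0.0324 FPKM and a value listed at 0 in ATF7KO white and 0 in both WT white libraries. Cyp2d22 and Cyp2c70 were thus opposite, with Cyp2d22 reaching 1 FPKM only in primary libraries and Cyp2c70 only in the line.

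Of the enzymes that act on receptor ligands, Cyp7b1 (chromosome 3, 18071950 to 18243338, mm10), which hydroxylates oxysterols, was listed at 0 in one C3H10t1/2 ATF7-overexpressing library, at 0.0266 FPKM in the other and at 0 in both control libraries. It had 8.24 and 12.5 FPKM in ATF7KO beige and 5.34 and 6.82 FPKM in WT beige, and 28.2 and 31.5 FPKM in ATF7KO white and 24.9 and 29.0 FPKM in WT white. White libraries were above all beige ones, and an exact 0 can be a failed estimate. Cyp26b1, which breaks down retinoic acid, had 0.181 and 0.251 FPKM in C3H10t1/2 ATF7-overexpressing and 0.459 and 0.255 FPKM in control, 0.298 and 0.252 FPKM in ATF7KO beige and 0.562 and 0.641 FPKM in WT beige, and 1.90 and 1.86 FPKM in ATF7KO white and 1.38 and 0.978 FPKM in WT white. Each library with rosiglitazone was below each white library for Cyp26b1. Cyp2r1, the main vitamin D hydroxylase of liver, was listed at 0 in both C3H10t1/2 ATF7-overexpressing libraries and had 0.0836 FPKM and a value of 0 in control, 1.13 and 1.20 FPKM in ATF7KO beige and 1.29 and 1.62 FPKM in WT beige, and 1.73 and 1.18 FPKM in ATF7KO white and 1.85 and 1.46 FPKM in WT white.

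Cyp20a1, an orphan P450 with no settled substrate, had 9.98 and 8.30 FPKM in C3H10t1/2 ATF7-overexpressing and 7.56 and 7.82 FPKM in control, 7.11 and 9.23 FPKM in ATF7KO beige and 6.60 and 8.10 FPKM in WT beige, and 10.6 and 8.19 FPKM in ATF7KO white and 10.99 and 11.6 FPKM in WT white. In proportion, it varied least of the members, from 6.60 to 11.6 FPKM.

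**Figure D3:**
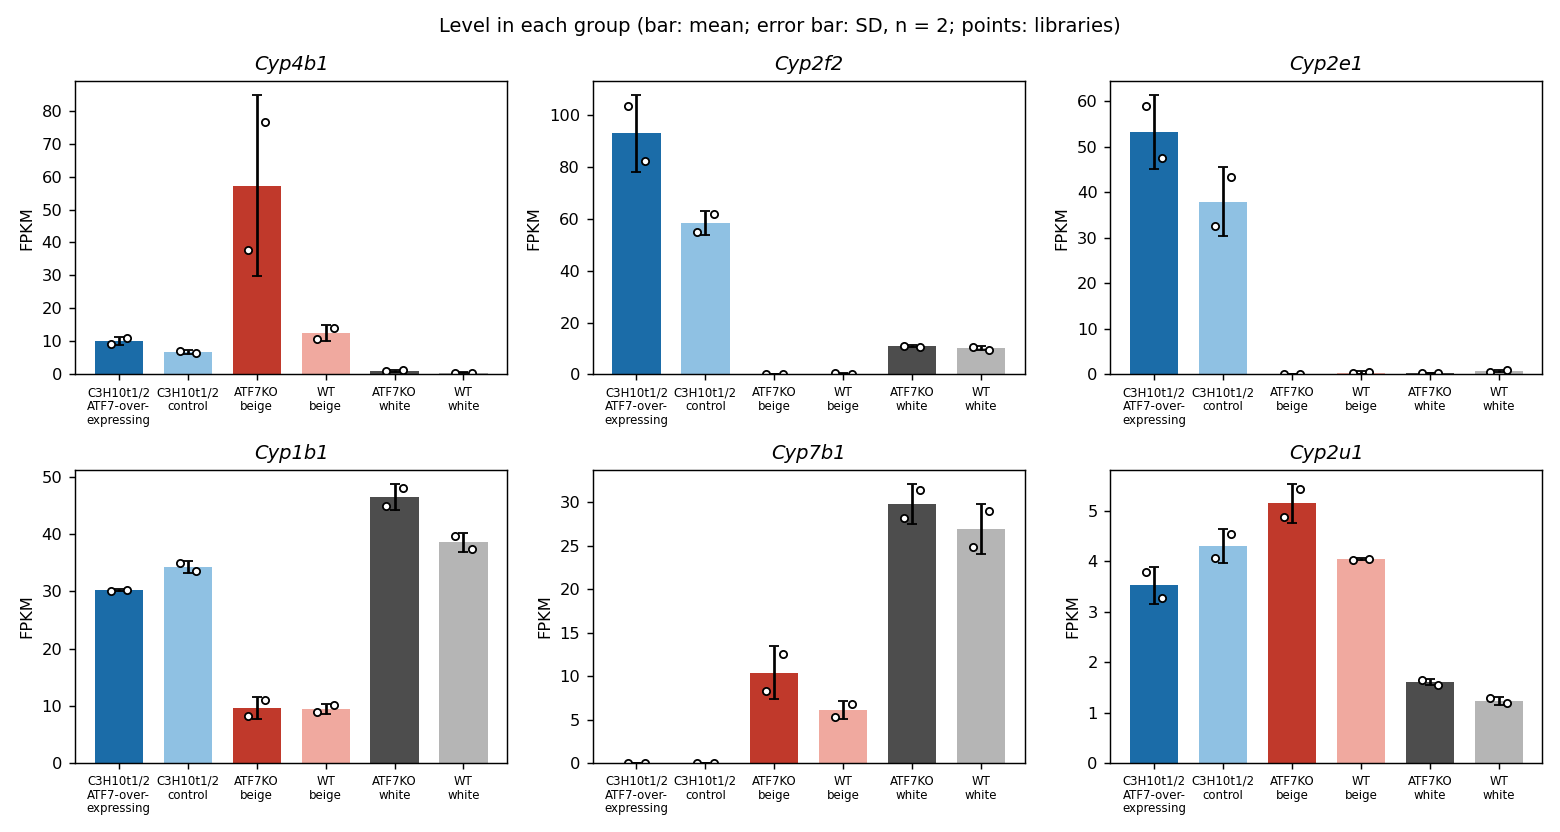
Bars give the mean FPKM and error bars the SD of the 2 libraries in each group (points) for 6 members, each panel with its own axis from 0. Cyp4b1 peaks in ATF7KO beige with its 2 libraries far apart, Cyp2f2 and Cyp2e1 peak in C3H10t1/2, and Cyp1b1 and Cyp7b1 are higher in white than in beige cultures.

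Rosiglitazone was compared by setting beige against white cultures within each genotype. The family split: Cyp4b1, the fatty acid hydroxylases Cyp2u1, Cyp4f13 and Cyp4f17, and Cyp2d22 rose in beige cultures of both genotypes, and Cyp2f2, Cyp1b1, Cyp7b1, Cyp2j6 and Cyp26b1 fell in both. Differences here and below are in units of log2(FPKM + 1), where the added 1 shrinks the change of weakly expressed genes, and calls are at an adjusted p under 0.05 (limma, Benjamini-Hochberg over all entries tested, 8 primary libraries in 1 fit with 4 residual degrees of freedom). In WT, 5 of the 15 members tested rose and 6 fell, against 21.6% of all 11294 entries that rose and 32.1% that fell. In ATF7KO, 5 rose and 6 fell, against 26.6% and 34.3% of entries. The balance of all entries moved with the scaling: in ATF7KO 3009 rose and 3878 fell, against 3689 and 3299 under quantile normalization, 3734 and 3337 under median centring and 2254 and 5059 without small RNA genes. In WT 2440 rose and 3629 fell, against 3054 and 2950 under quantile normalization, 3121 and 2955 under median centring and 1935 and 4833 without small RNA genes. The members had a median difference of -0.18 in ATF7KO and -0.11 in WT, against -0.06 and -0.10 over all entries. 10 members were called in both genotypes in the same direction. Cyp2f2 and Cyp26b1 passed the filter of this fit only through white libraries. In white cultures Cyp4b1 reached 1 FPKM only in ATF7KO white replicate 2 (1.18 FPKM), so it needed beige libraries to pass. In beige cultures Cyp2j9 reached 1 FPKM only in WT beige replicate 1 (1.58 FPKM), so it needed white libraries to pass. The direction of the calls of these members was thus partly set by the filter. Cyp20a1 was called only in WT and Cyp2j9 only in ATF7KO, and neither passed the test of the difference between genotypes (limma, adjusted p = 0.396 for Cyp20a1 and 0.315 for Cyp2j9).

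Cyp4b1 rose by 4.74 in ATF7KO (SE 0.28, limma adjusted p = 1.7e-06) and by 3.15 in WT (SE 0.28, limma adjusted p = 2.3e-05). In mean FPKM, beige was 54.4-fold above white in ATF7KO and 24.5-fold above it in WT. Cyp2u1 rose by 1.24 in ATF7KO (SE 0.10, limma adjusted p = 7.6e-06) and by 1.17 in WT (SE 0.10, adjusted p = 1.5e-05), which is 3.21-fold and 3.27-fold in mean FPKM. Cyp4f17 rose by 0.54 in ATF7KO (SE 0.14, limma adjusted p = 0.0095) and by 0.72 in WT (SE 0.14, adjusted p = 0.0026). Cyp4f13 rose by 0.70 in ATF7KO (SE 0.16, limma adjusted p = 0.0040) and by 0.58 in WT (SE 0.16, adjusted p = 0.012). Cyp4v3 differed by 0.11 in ATF7KO and by 0.18 in WT and Cyp4f16 by -0.30 and -0.43, and neither passed. The call of Cyp4f17 in ATF7KO was lost without ATF7KO beige replicate 2 (adjusted p = 0.060) or ATF7KO white replicate 2 (0.056). That of Cyp4f13 in WT was lost without WT beige replicate 1 (0.074) or WT white replicate 2 (0.065).

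Cyp2f2 fell by 3.47 in ATF7KO (SE 0.11, limma adjusted p = 1.4e-07) and by 3.09 in WT (SE 0.11, adjusted p = 3.1e-07). Its mean FPKM in white cultures was 160.2-fold the beige mean in ATF7KO and 33.1-fold in WT, ratios that rest on beige values under 0.4 FPKM. Cyp1b1 fell by 2.18 in ATF7KO (SE 0.13, limma adjusted p = 2.3e-06) and by 1.92 in WT (SE 0.13, adjusted p = 7.3e-06). Cyp2d22 rose by 0.95 in ATF7KO (SE 0.17, limma adjusted p = 0.0014) and by 1.12 in WT (SE 0.17, adjusted p = 0.00070). Drug-metabolising members thus moved both ways, with Cyp2d22 against Cyp2f2 and Cyp1b1.

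Among ligand-handling members, Cyp7b1 fell by 1.46 in ATF7KO (SE 0.18, limma adjusted p = 0.00015) and by 1.98 in WT (SE 0.18, adjusted p = 3.2e-05). Cyp26b1 fell by 1.17 in ATF7KO (SE 0.12, limma adjusted p = 4.0e-05) and by 0.44 in WT (SE 0.12, adjusted p = 0.014). The WT call of Cyp26b1 was lost under quantile normalization (-0.10, adjusted p = 0.54), median centring (0.058), without WT beige replicate 1 (0.081) and without WT white replicate 1 (0.061). Cyp2j6 fell by 0.82 in ATF7KO (SE 0.13, limma adjusted p = 0.00049) and by 0.94 in WT (SE 0.13, adjusted p = 0.00028). Cyp2r1 differed by -0.17 in ATF7KO and by -0.11 in WT and did not pass. Cyp20a1 differed by -0.18 in ATF7KO, which did not pass, and fell by 0.56 in WT (SE 0.15, limma adjusted p = 0.014), a call lost without WT beige replicate 1 (0.10) or WT white replicate 2 (0.066). Cyp2j9 fell by 0.66 in ATF7KO (SE 0.20, limma adjusted p = 0.017), a call lost under quantile normalization (0.26) and without ATF7KO beige replicate 2 (0.11), ATF7KO white replicate 1 (0.050) or ATF7KO white replicate 2 (0.084), and it differed by -0.06 in WT.

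Markers of other cells moved with this comparison. All 13 macrophage markers and all 10 stromal progenitor markers tested fell in beige cultures of both genotypes. Macrophage markers summed to 35.2 and 44.6 FPKM in ATF7KO beige and to 34.1 and 35.2 FPKM in WT beige libraries, against 802 to 852 FPKM in ATF7KO white and 549 to 608 FPKM in WT white libraries. Stromal markers summed to 567 to 831 FPKM in ATF7KO beige and 703 to 727 FPKM in WT beige, against 3691 to 3927 FPKM in ATF7KO white and 3483 to 4503 FPKM in WT white. Their part in the lower Cyp1b1, Cyp7b1, Cyp26b1, Cyp2f2 and Cyp2j6 of beige cultures was not tested. In the C3H10t1/2 control libraries the macrophage sum was 1.68 and 2.32 FPKM, with C1qa, C1qb, Ctss, Itgam and Tyrobp listed at 0. The stromal sum there was 397 to 433 FPKM. Cyp1b1 stood at 35.0 and 33.6 FPKM, Cyp2f2 at 55.1 and 61.7 FPKM and Cyp2j6 at 5.05 and 5.22 FPKM. In the same libraries Cyp7b1 was listed at 0 and Cyp26b1 stood at 0.459 and 0.255 FPKM. The line differs from the primary cultures in cell source and strain, so nothing about the cells that express these members is drawn from it. The 8 thermogenic adipocyte markers tested rose in beige cultures of both genotypes, with sums of 1114 to 1173 FPKM in ATF7KO beige and 868 to 910 FPKM in WT beige, against 43.9 to 59.6 FPKM in ATF7KO white and 56.0 to 59.8 FPKM in WT white, and their part in the members' rises was not tested.

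**Figure D4:**
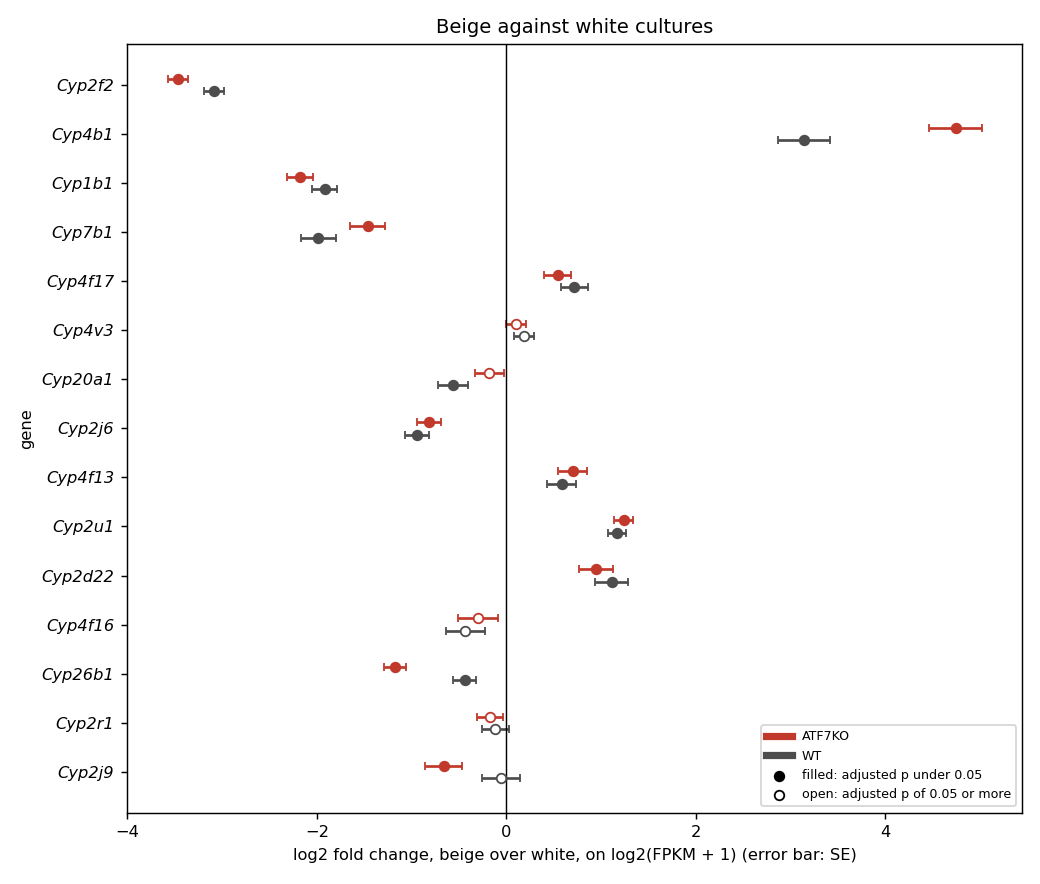
Points give the log2 fold change of beige over white cultures on the log2(FPKM + 1) scale for the 15 members tested, in ATF7KO and WT, with SE as bars and filled points at an adjusted p under 0.05 (limma). Cyp4b1 stands furthest to the right in both genotypes (4.74 and 3.15) and Cyp2f2 furthest to the left (-3.47 and -3.09).

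Supply and control genes of the system were counted in the same fit, in which 3009 of all 11294 entries rose and 3878 fell in ATF7KO (26.6% and 34.3%) and 2440 rose and 3629 fell in WT (21.6% and 32.1%). The counts of the lists below are to be read against those shares, and nothing particular to a list is drawn from them. Of 11 redox partners tested, 5 rose and 2 fell in ATF7KO and 4 rose and 2 fell in WT. Por, the reductase that feeds microsomal P450s, had 45.6 and 48.2 FPKM in ATF7KO beige and 52.1 and 48.2 FPKM in WT beige, against 26.4 and 25.6 FPKM in ATF7KO white and 26.1 and 28.4 FPKM in WT white. It rose by 0.83 in ATF7KO (SE 0.10, limma adjusted p = 8.7e-05) and by 0.86 in WT (SE 0.10, adjusted p = 9.6e-05). Fdx1, a mitochondrial ferredoxin, rose by 1.60 in ATF7KO and by 1.20 in WT, and Cyb5r1, a cytochrome b5 reductase, by 1.80 in ATF7KO and by 1.46 in WT. Fdx1l, the other ferredoxin, was called higher in ATF7KO beige, but both ATF7KO white libraries are listed at 0, which can be a failed estimate, so no fold is given. Of 10 haem synthesis genes, 5 rose and 0 fell in ATF7KO and 1 rose and 0 fell in WT. Alas1, the rate-limiting enzyme of haem synthesis, had 99.7 and 83.6 FPKM in ATF7KO beige and 102.5 and 89.9 FPKM in WT beige, against 20.6 and 21.02 FPKM in ATF7KO white and 23.7 and 24.99 FPKM in WT white. Alas1 rose by 2.08 in ATF7KO and by 1.94 in WT, while Alad, the next enzyme, rose by 0.63 in ATF7KO.

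Of 4 haem breakdown genes, 1 rose and 1 fell in each genotype. Hmox1, which opens the haem ring, rose by 1.45 in ATF7KO and by 1.66 in WT, and Blvra fell by 0.77 in ATF7KO and by 0.63 in WT. Of 14 regulators, 7 rose and 6 fell in each genotype. Ppara, the receptor of fatty acids that drives Cyp4a genes in liver, had 29.4 and 34.3 FPKM in ATF7KO beige and 23.9 and 23.4 FPKM in WT beige, against 0.763 and 0.795 FPKM in ATF7KO white and 0.850 and 0.972 FPKM in WT white. It rose by 4.20 in ATF7KO and by 3.69 in WT. Rxra fell by 1.15 in ATF7KO and by 1.01 in WT, Rxrg rose by 2.48 in ATF7KO and by 1.65 in WT, and Rara fell by 1.25 in ATF7KO and by 1.33 in WT. Of the 2 epoxide hydrolases, Ephx2, which opens fatty acid epoxides, rose by 2.91 in ATF7KO and by 2.19 in WT, and Ephx1 fell by 0.75 in ATF7KO and by 0.34 in WT. Of the 3 P450s named outside the pattern, 3 fell in ATF7KO and 2 in WT: Cyp51, a sterol demethylase, by 0.71 in ATF7KO and 0.76 in WT, Tbxas1, thromboxane synthase, by 1.25 in ATF7KO and 0.88 in WT, and Ptgis, prostacyclin synthase, by 1.69 in ATF7KO. Ptgis differed by -0.52 in WT (limma adjusted p = 0.0735), which did not pass. Over all 44 pathway genes tested, 19 rose and 13 fell in ATF7KO and 14 rose and 12 fell in WT, so most were called, as were most of all entries.

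The ATF7KO label was then compared with WT in each culture kind. In beige cultures Cyp4b1 was the 1 member called of the 15 tested, and it was higher in ATF7KO, against 0.0531% of all 11294 entries called higher (6 entries). Its mean of 57.2 FPKM in ATF7KO was 4.60-fold the 12.4 FPKM of WT, with both ATF7KO libraries above both WT libraries. The change was 2.04 (SE 0.28, limma adjusted p = 0.0358). This call was lost in 9 of 15 alternatives, each with the same direction: the adjusted p lay between 0.0032 and 0.376 and the change between 1.54 and 2.54. Without WT beige replicate 1 it was 1.86 (adjusted p = 0.376), and without WT beige replicate 2 it was 2.23 (0.093). Leaving out 1 white library moved the adjusted p to between 0.0969 and 0.1002 at an unmoved fold change.

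The groups did not overlap in beige cultures for 7 of 15 members, 4 higher (Cyp2j6, Cyp2u1, Cyp4b1 and Cyp7b1) and 3 lower (Cyp26b1, Cyp2f2 and Cyp2r1) in ATF7KO, against 41.2% of all entries. Cyp7b1 differed by 0.67 (SE 0.18, limma adjusted p = 0.308), a 1.71-fold difference in mean FPKM. Cyp2u1 differed by 0.28 (SE 0.10, limma adjusted p = 0.376), Cyp26b1 by -0.33 (SE 0.12, adjusted p = 0.421) and Cyp2f2 by -0.29 (SE 0.11, adjusted p = 0.422). None of these 4 passed. All beige values of Cyp2f2 and Cyp26b1 were under 1 FPKM, and both genes entered this fit only through white libraries. The members had a median difference of 0.03, against 0.04 over all entries. The macrophage, stromal and thermogenic markers gave 0 calls in this comparison by limma. Thermogenic markers summed to 1114 to 1173 FPKM in ATF7KO beige and 868 to 910 FPKM in WT beige (median difference 0.40 over 8), and their part in the higher Cyp4b1 was not tested.

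In white cultures 0 of 15 members were called by limma, against 1.89% of all entries (143 higher and 70 lower, or 195 and 192 under quantile normalization), and 2 (Cyp26b1 and Cyp2u1) had an unadjusted p under 0.05. That background rests on few libraries: the 213 entries called became 30 or 29 without ATF7KO white replicate 1 or 2, 47 without WT white replicate 2 and 82 without either WT beige library. Groups did not overlap for 6 members higher in ATF7KO (Cyp1b1, Cyp26b1, Cyp2f2, Cyp2j9, Cyp2u1 and Cyp4b1) and 1 lower (Cyp20a1), against 53.4% of entries. Cyp26b1 differed by 0.41 (SE 0.12, limma adjusted p = 0.119), Cyp2u1 by 0.22 (SE 0.10, adjusted p = 0.249) and Cyp4b1 by 0.44 (SE 0.28, adjusted p = 0.406). Cyp4b1 had 2.07 times as much mean FPKM in ATF7KO white, at levels near 1 FPKM. The median over the members was 0.11, against 0.03 over all entries. In white cultures 5 of 13 macrophage markers and 1 of 10 stromal markers tested were called higher in ATF7KO. Of 11 adipocyte markers tested, 2 were called lower in ATF7KO white, with a median difference of -0.47. Adipocyte markers summed to 4195 to 4310 FPKM in ATF7KO white and 5496 to 6450 FPKM in WT white. The part of these markers in the members' differences was not tested.

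The interaction of genotype and rosiglitazone was called for 0 of 15 members by limma, against 0.292% of entries, with 3 at an unadjusted p under 0.05. The rosiglitazone difference in ATF7KO minus that in WT was 1.60 for Cyp4b1 (SE 0.39, limma adjusted p = 0.154), -0.74 for Cyp26b1 (SE 0.17, adjusted p = 0.147) and -0.38 for Cyp2f2 (SE 0.15, adjusted p = 0.251). The 33 entries called in the interaction became 17 without WT beige replicate 1 and 22 without ATF7KO beige replicate 2. Over 15 alternatives the Cyp4b1 interaction lay between 1.10 and 2.10, and it stayed uncalled in 14. The value of 2.10 came without ATF7KO beige replicate 1, a fit that leaves 1 library in that group. The Cyp4b1 difference between genotypes is thus called in beige and not in white cultures, while the interaction itself was not called with all libraries.

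Among the supply and control genes, limma called 0 of 44 in beige cultures, with 5 at an unadjusted p under 0.05, against 17 and 1160 of all 11294 entries (7 called without WT beige replicate 1). In white cultures it called Fdx1l, listed at 0 in both ATF7KO libraries and at 6.28 and 5.31 FPKM in WT, and Rarg, a retinoic acid receptor, which rose by 0.55 (SE 0.09, limma adjusted p = 0.0306). Fdx1l was also the 1 gene of these lists called in the interaction.

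In C3H10t1/2, ATF7-overexpressing against control libraries gave 0 calls among the 12 members tested, against 1.49% of all 9981 entries, of which 43 were higher and 106 lower, or 92 and 114 without small RNA genes (limma, 4 libraries, 2 residual degrees of freedom), and 5 had an unadjusted p under 0.05. Groups did not overlap for 11 of 12: 7 were higher (Cyp20a1, Cyp2e1, Cyp2f2, Cyp2j6, Cyp4b1, Cyp4f16 and Cyp4v3) and 4 lower (Cyp1b1, Cyp2u1, Cyp4f13 and Cyp4f17) in the ATF7-overexpressing libraries, against 49.1% of all entries. Cyp2f2 had a mean of 92.9 FPKM in ATF7-overexpressing and 58.4 FPKM in control libraries, a difference of 0.65 (SE 0.12, limma adjusted p = 0.0663). It passed in 3 alternatives: quantile normalization (adjusted p = 0.0465), all 12 libraries in 1 fit (0.0293) and without small RNA genes (0.0288). Cyp4b1 differed by 0.51 (SE 0.10, limma adjusted p = 0.0771) and Cyp2e1 by 0.48 (SE 0.16, adjusted p = 0.197). Cyp4f17 differed by -0.29 (SE 0.10, limma adjusted p = 0.232) and Cyp1b1 by -0.17 (SE 0.06, adjusted p = 0.230). Without 1 library, the 149 entries called became 69 or 73 (control replicate 1 or 2) and 17 or 25 (ATF7-overexpressing replicate 1 or 2). The median over the members was 0.16, against -0.02 over all entries. Of 6 thermogenic markers tested, 4 fell, with sums of 625 to 755 FPKM in ATF7-overexpressing and 1069 to 1162 FPKM in control libraries, and their part in these differences was not tested.

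Cyp4b1 was higher with the ATF7KO label in primary beige cultures and, short of a call, higher with ATF7 overexpression in C3H10t1/2. Cyp2u1 had opposite values, 0.28 in ATF7KO beige and -0.23 in ATF7-overexpressing cells, and neither was called. Of the 41 supply and control genes tested in C3H10t1/2, Ppara alone was called: it had 15.9 and 14.7 FPKM in ATF7-overexpressing and 23.7 and 23.9 FPKM in control libraries and fell by 0.61 (SE 0.07, limma adjusted p = 0.0176).

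**Figure D5:**
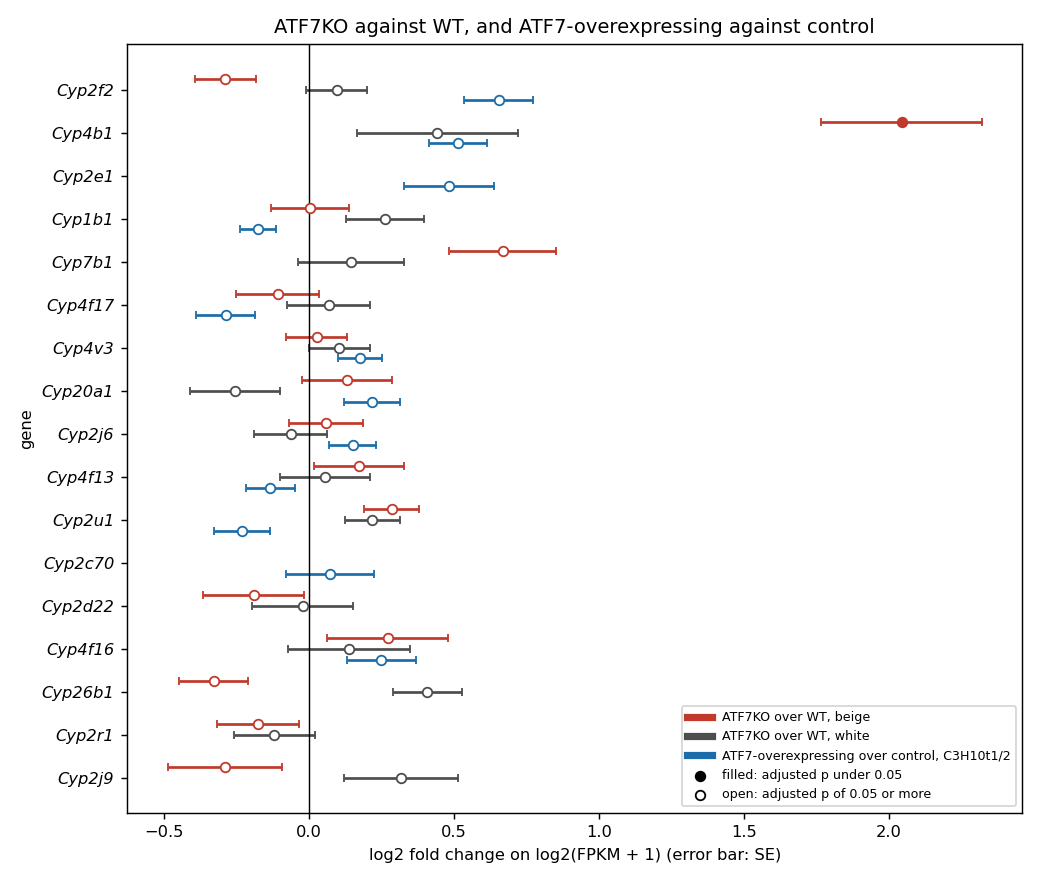
Points give the log2 fold change on the log2(FPKM + 1) scale for ATF7KO over WT in beige and in white cultures, and for ATF7-overexpressing over control C3H10t1/2, with SE as bars (limma). The single filled point is Cyp4b1 in beige cultures (2.04), and members without a point did not pass the filter of that fit.

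Between the sources of rosiglitazone-treated control cells, C3H10t1/2 control against WT beige primary cultures, 7 of 17 members were higher in the line, against 31.1% of all 11601 entries, and 5 were lower, against 25.3%. Cell source, strain and construct differ together here and cannot be told apart. Cyp2c70 and Cyp2e1 passed the filter of this fit only through libraries of the line. Cyp26b1, Cyp2d22, Cyp2j9, Cyp2r1 and Cyp7b1 passed it only through primary libraries. The direction of such calls was partly set by the filter, so nothing about the family is drawn from these counts. Cyp2f2 was higher by 5.51 (SE 0.12, limma adjusted p = 3.9e-10) and Cyp2e1 by 4.80 (SE 0.17, adjusted p = 1.1e-08), which is 191.8-fold and 95.0-fold in mean FPKM over WT beige means under 0.4 FPKM. Cyp4f17, Cyp1b1, Cyp2c70, Cyp2j6 and Cyp4v3 were higher by 1.75, 1.75, 1.64, 1.31 and 1.30.

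Cyp7b1 was listed at 0 in both C3H10t1/2 control libraries and had 5.34 and 6.82 FPKM in WT beige. It was called lower, and no fold is given against 0. Cyp2d22 was lower by 2.06 (SE 0.16, limma adjusted p = 2.0e-06) and Cyp2r1 by 1.23 (SE 0.13, adjusted p = 1.7e-05), with control values at or near 0. Cyp4b1 fell by 0.77 in the line (SE 0.26, limma adjusted p = 0.029), a call lost with no filter (0.059), without WT beige replicate 2 (0.17) and without either control library (0.067 and 0.12). Cyp2j9 fell by 0.58 (SE 0.18, limma adjusted p = 0.019), lost under quantile normalization (0.13), without WT beige replicate 1 (0.16) and without either control library (0.055 and 0.081). The members had a median of 0.06, against 0.06 over all entries.

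Of the supply genes, Alad, the next enzyme after Alas1, had 31.2 and 31.7 FPKM in C3H10t1/2 control and 3.15 and 3.05 FPKM in WT beige and was higher by 2.99 (SE 0.13, limma adjusted p = 4.0e-08). Alas1 itself was lower in the line by 0.89 and Hmox1 by 3.20. Cyb5r1 was lower by 3.05, while Cyb5r3 was higher by 1.23. Rxra was higher by 1.20 and Rarg by 0.98, and Ephx1 and Ephx2 by 1.12 and 1.42. Over the 44 pathway genes tested, 17 were higher and 10 lower in the line, against 31.1% and 25.3% of all entries.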

How the data were processed

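RNA of 12 adipocyte libraries was sequenced. Per the labels' protocols, ribosomal RNA was depleted from total RNA and directional libraries were read from both ends for 36 bases. The authors deposited 1 FPKM value per entry and library, and the builds mm10 and GRCm38 are named in the submitters' processing notes. For aligner, quantifier and annotation, the status is: not given in the sources used here. Groups came from the sample labels. Starts in the deposited values count from 0 (the RefSeq start is greater by 1 in 61.8% of 22919 symbols), so 1 was added to each start. How reads of near-identical copies were assigned is not known here.

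The test was limma 3.58.1 (eBayes with trend, two-sided) in R 4.3.3 on log2(FPKM + 1), for entries with 1 FPKM or more in 2 libraries of the fit, with Benjamini-Hochberg adjustment over all entries and a threshold of 0.05, and it was tested on simulated data. The 8 primary libraries, the 4 C3H10t1/2 libraries and all 12 (for the line against WT beige, 6 residual degrees of freedom) were fitted separately. Members, gene lists and one alternative (without small RNA genes) were chosen with earlier results of these data known. Each member past the filter is named. Those called in a comparison or with a group mean of 5 FPKM have all library values. Up to 3 genes with the lowest p are named per pathway list. One gene that this rule names is not reported here. Alternatives were a pseudocount of 0.1, no filter, quantile normalization, median centring, a replicate block, all libraries in 1 fit and each library left out. Tables were made with Python 3.11.15.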

Additional observations from a re-analysis of the deposited data

Results flagged for a closer look

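Cyp2f2 and Cyp26b1 differed between ATF7KO and WT in opposite directions in the beige and the white cultures, with all libraries on 1 side each time. Cyp2f2 had 0.0323 and 0.103 FPKM in ATF7KO beige and 0.381 and 0.228 FPKM in WT beige, but 11.06 and 10.60 FPKM in ATF7KO white and 10.56 and 9.59 FPKM in WT white. Its beige values were thus at most 0.381 FPKM, and its white difference was small, at 0.10 (SE 0.11, limma adjusted p = 0.649). The interaction was -0.38 (limma, adjusted p = 0.251) and was not called. Cyp26b1 had 0.298 and 0.252 FPKM in ATF7KO beige and 0.562 and 0.641 FPKM in WT beige, but 1.90 and 1.86 FPKM in ATF7KO white and 1.38 and 0.978 FPKM in WT white. Its interaction was -0.74 (limma, adjusted p = 0.147) and was not called either. Groups did not overlap for 41.2% of all entries in beige and 53.4% in white cultures, and neither gene was called between ATF7KO and WT in either culture kind (limma).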

How the results depend on the processing

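Of 35 called tests of members, 27 kept their call and direction under every alternative run and 8 lost the call under some. 0 of the 35 called tests and of the 15 uncalled tests at an unadjusted p under 0.05 changed sign. The count of members called in ATF7KO against WT beige was 1, and it was 0 with a pseudocount of 0.1 (Cyp4b1 adjusted p = 0.0603), with no filter (0.192) and under quantile normalization (0.0638), and 0 to 1 when a library was left out. The interaction count was 0, and 0 to 1 when a library was left out. In C3H10t1/2 ATF7-overexpressing against control it was 0, and 1 (Cyp2f2) under quantile normalization, with all 12 libraries in 1 fit and without small RNA genes. In C3H10t1/2 control against WT beige it was 12, and 19 with no filter, where 55 members were tested. The cause of these moves was not tested.

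Replicate numbers were not treated as pairs, since deviations of same-numbered libraries correlated at -0.087 to 0.124 in primary cultures and at 0.055 in C3H10t1/2. With the replicate block, 1 member was called in ATF7KO against WT beige, 12 in WT beige against white (11 without it), 11 in ATF7KO beige against white, 12 in the line against WT beige and 0 in the others.

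Without small RNA genes, the median over all entries in beige against white was -0.23 in ATF7KO, against -0.06, and -0.22 in WT, against -0.10. In WT beige against white, 6 members rose and 5 fell under quantile normalization and median centring, against 5 and 6. In ATF7KO the same split came under quantile normalization. Depth is unknown, and 2 libraries per group limit every test.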
